A study of Mus musculus with 15 samples.

Results

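Proliferating nuclei were taken from the snRNA-seq libraries of 15 female mice, made from punches enriched for the dorsal hippocampal formation (dHF). These were barcodes with at least 500 genes and at least 3 unique molecular identifiers (UMIs, each 1 counted RNA molecule) of Top2a plus Mki67. Of 134019 barcodes, 133236 passed the gene minimum and 342 of these met the rule, which is 0.257% or 25.7 per 10000 nuclei. Every mouse had some, from 6 to 52. The punches came from brains of C57BL6/J females. The paper states that they also took in parts of cortex, thalamus and ventral hippocampus. It removed clusters of neurons from outside the dHF and of contaminant cell types. That removal was not applied here. The 6 nulliparous (NP) females were virgins, the 4 control RE (reproductive experience) females had bred, given birth, lactated and raised pups, and the 5 stress RE females had in addition been given little nesting material and daily separations from the pups for part of the postpartum period. The labels give a batch number for each library, and batch 1 held 2 NP mice and 1 stress RE mouse but no control RE mouse. The paper describes batches of samples with all groups in each, which batch 1 does not match. Each library came from 1 mouse, so the mouse was the replicate, and the nuclei of a mouse were not counted as replicates.

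In the adult brain few cells divide. The dentate gyrus keeps neural stem cells (radial glia-like cells), whose Eomes-positive offspring divide and become granule neurons. The ventricular wall keeps stem cells whose offspring express Dlx1 and Dlx2, homeobox genes of GABAergic neurons, and migrate as neuroblasts. Oligodendrocyte precursor cells (OPCs), marked by Pdgfra, the receptor for platelet-derived growth factor, divide throughout grey and white matter, and microglia, marked by Csf1r, the receptor for colony-stimulating factor, renew themselves by division. Top2a, topoisomerase II alpha, untangles DNA before division, Mki67 coats mitotic chromosomes, and Cenpf, centromere protein F, is a late cell cycle gene of the kinetochore. Genes of the G2 and M phases are known to be held silent in resting cells and switched on late in the cycle through CCAAT boxes, bound by NF-Y, and through the cell cycle homology region, whose core is TTTGAA, bound by the MuvB complex. Genes of S phase are known for E2F sites.

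A library had 5789 to 12738 barcodes, with 40602582 to 96211264 UMIs in all and a median of 4020 to 8877 UMIs per nucleus. The proliferating nuclei had a median of 5870 UMIs and 2844 genes, near the 5737 UMIs of other nuclei, and at most 3.08% mitochondrial UMIs. Of 131768 distinct barcode sequences, 2211 occurred in more than 1 library, and 9 proliferating nuclei had a barcode that occurred in another library. None of the 9 shared it with another proliferating nucleus. In NP mice 35 and 73 and stress RE mice 75 and 77 a list of striatal neuron genes stood at 69.8 to 263 CPM (UMIs per 1000000) over the other nuclei of the library, against 24.2 to 44.7 CPM in the remaining 11 mice, and in stress RE mouse 43 many of the chosen nuclei lacked Top2a.

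The promoters of Top2a and Mki67 are shown because the nuclei were chosen on what they drive, and that of Cenpf because it is the third marker of the class. In GENCODE vM21 on GRCm38 all 3 are protein-coding genes on the minus strand, Top2a at chr11:98992943-99024189, Mki67 at chr7:135689784-135716361 and Cenpf at chr1:189640606-189688086. The 250 bases before the start site are given from RefSeq on GRCm38.p6 in the direction of the gene, at chr11:99024190-99024439 for Top2a, chr7:135716380-135716629 for Mki67 and chr1:189688087-189688336 for Cenpf. Capitals mark CCAAT and TTTGAA or their reverse complements, ATTGG and TTCAAA.
Top2a: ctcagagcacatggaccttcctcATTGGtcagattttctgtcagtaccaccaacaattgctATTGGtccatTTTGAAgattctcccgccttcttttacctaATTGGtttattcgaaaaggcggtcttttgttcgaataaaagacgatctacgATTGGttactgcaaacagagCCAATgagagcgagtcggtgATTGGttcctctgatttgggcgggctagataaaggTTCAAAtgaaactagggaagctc
Mki67: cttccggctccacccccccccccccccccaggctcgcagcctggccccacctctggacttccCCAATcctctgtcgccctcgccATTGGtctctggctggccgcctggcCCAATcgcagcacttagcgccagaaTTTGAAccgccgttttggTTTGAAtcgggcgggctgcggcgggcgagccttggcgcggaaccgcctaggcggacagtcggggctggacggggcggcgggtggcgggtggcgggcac
Cenpf: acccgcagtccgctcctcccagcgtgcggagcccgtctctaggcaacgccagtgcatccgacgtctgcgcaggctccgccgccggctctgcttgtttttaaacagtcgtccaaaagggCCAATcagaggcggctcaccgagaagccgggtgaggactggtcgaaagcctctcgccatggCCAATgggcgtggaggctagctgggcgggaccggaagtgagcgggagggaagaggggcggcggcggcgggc
The Top2a promoter held 6 CCAAT and 2 TTTGAA matches, the Mki67 promoter 3 and 2, and the Cenpf promoter 2 CCAAT matches in these bases, with a TTTGAA match at base 3 after the start. Both strands were searched in windows of 250 bases before to 50 after the start, and a base could count toward more than 1 motif. Of all 32851 RefSeq promoter windows, 37.4% held CCAAT and 17.9% TTTGAA. The 49 windows of 44 genes of a G2/M phase list held them in 73.5% and 65.3%, and the 37 windows of 33 genes of an S phase list in 70.3% and 16.2%. The E2F forms TTTCCCGC, TTTCGCGC, TTTGGCGC and TTTGCCGC were in 37.8% of S phase windows, 6.12% of G2/M windows and 2.26% of all windows. TTTGAA and CCAAT occurred together in 51.0% of G2/M windows and 6.95% of all windows. A match is a run of letters and not a measured binding site.

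Of the proliferating nuclei, 233 (68.1%) carried both rule genes, 33 (9.65%) carried Top2a without Mki67 and 76 (22.2%) carried Mki67 without Top2a. Their Top2a and Mki67 levels chose the nuclei and are given as a description. The 2 rule genes differed in how far they were limited to these nuclei. Of all Top2a UMIs, 80.1% (1597 of 1995) fell in proliferating nuclei, but only 18.5% of Mki67 UMIs (1202 of 6481) did. Mki67 had at least 1 UMI in 10.1% of nuclei with dentate granule neuron genes (median 10833 UMIs per nucleus) and in 0.834% of nuclei with oligodendrocyte genes (median 2827 UMIs). Top2a had one in 0.297% and 0.174% of the same nuclei. With every nucleus thinned to 2000 UMIs, the Mki67 share of granule neuron nuclei was 2.03%. Neither cell type divides, and the source of these UMIs was not tested.

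Cenpf, which the rule did not use, was found more often with Top2a than with Mki67 alone. It was found in 51.8% of the proliferating nuclei (177 of 342) and in 0.590% of the 132894 other nuclei. By rule genes, it was found in 67.0% of nuclei with both, 33.3% of those with Top2a alone and 13.2% of those with Mki67 alone. The 13.2% was itself above the share in other nuclei. In the 76 nuclei with Mki67 alone the median was 11832 UMIs, against 5457 in nuclei with both genes, and 65 of them carried none of the lineage markers described below. Their mature neuron list (8 genes) stood at 5999 UMIs per 1000000 UMIs of the same nuclei (CPM), near the 6081 CPM of granule neuron nuclei, and their list of 20 kinesin and spindle genes at 109 CPM, above the 25.2 CPM of other nuclei. The same kinesin list stood at 2470 CPM in Top2a-bearing nuclei with no lineage marker. That the nuclei with Mki67 alone were proliferating is thus in doubt, and they are counted below because the rule takes them. The number of proliferating nuclei, the main lineage shares and the ependymal relation are also given for the 266 nuclei with Top2a.

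Just outside the rule, the 570 nuclei with 2 UMIs of the rule genes carried Cenpf in 2.98% of cases, their kinesin list was at 44.8 CPM, and their mature neuron list was at 5947 CPM. Just inside, the 104 nuclei with 3 UMIs carried Cenpf in 17.3% with 300.4 CPM of kinesin genes, and the 32 nuclei with 4 UMIs in 37.5% with 923 CPM. The 106 nuclei with 10 or more UMIs carried Cenpf in 85.8% with 4487 CPM. In both measures the nuclei with 3 UMIs lay between those with 2 and those with 4.

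**Figure D1:**
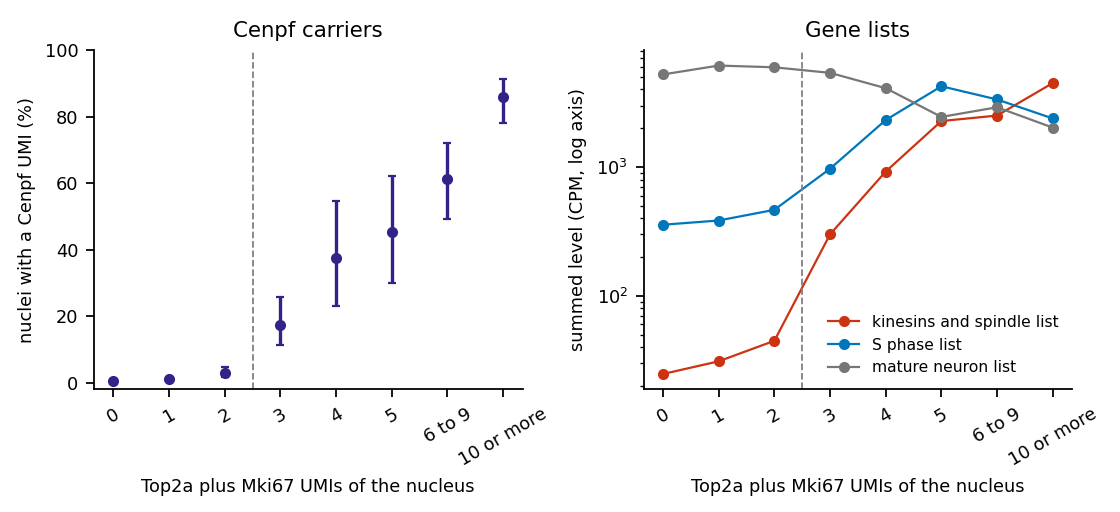
Nuclei are binned on the x axis by their UMIs of Top2a plus Mki67, and the dashed line marks the rule. Left, the percentage of nuclei with a Cenpf UMI with 95% Wilson intervals, from 0.565% at 0 UMIs to 85.8% at 10 or more. Right, the summed CPM of 3 gene lists on a log axis, where kinesin genes go from 24.8 to 4487 CPM and mature neuron genes are lowest at 10 or more UMIs.

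As a description, the genes with the highest ratio of pooled level to that in other nuclei were, after Top2a itself, Gm550, Hmmr, Neil3, Pbk, Kif18b, Cdk1, Lockd, Bub1, Esco2, Ska1, Depdc1a, Cdc25c, Kif2c and Cdca2, at 469-fold to 1009-fold. Hmmr encodes a spindle protein and was found in 137 of the nuclei at 970-fold. Neil3, a DNA glycosylase of replicating cells, was found in 187 nuclei at 962-fold, and Cdk1, the kinase that drives entry into mitosis, in 89 nuclei at 749-fold. Every gene of the S phase list (45 of 45), of the G2/M list (50 of 50, without the rule genes), of the centromere and kinetochore list (16 of 16) and of the kinesin and spindle list (20 of 20) was higher in proliferating nuclei. The summed level of each of these lists was higher in the proliferating nuclei of 13 of the 13 mice with at least 10 of them. The kinesin list was at 942 to 3395 CPM per mouse in proliferating nuclei and at 20.1 to 32.9 CPM in the other nuclei of the same libraries. These levels follow from choosing nuclei by late cell cycle genes and carry no test.

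Some lists of mature cell types were lower in proliferating nuclei. The mature oligodendrocyte list was at 460 CPM against 1340 CPM in other nuclei, the endothelial list at 22.1 against 77.1 CPM and the mature neuron list at 3673 against 5286 CPM, each lower in 13 of 13 mice. Pooled over mice, the dentate granule neuron list was higher at 491 against 438 CPM. So were the striatal projection neuron list (91.3 against 66.4), the ependymal list (22.7 against 16.1) and the choroid plexus list (147 against 111). In order, these lists were higher in 5, 7, 5 and 1 of 13 mice. Lists of stem and precursor cells were higher. The neural stem or radial glia list was at 718 against 183 CPM and the OPC list at 3677 against 1523 CPM, each higher in 13 of 13 mice. The astrocyte list was at 570 against 602 CPM, and 5 of 13 mice had it higher.

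Proliferating nuclei per 10000 nuclei were compared between groups over mice. In NP mice they numbered 17.6, 10.4, 36.5, 26.8, 12.8 and 32.1 (mice 27, 31, 35, 37, 63 and 73). In control RE mice they numbered 27.7, 19.9, 18.2 and 15.3 (mice 66, 72, 87 and 88). In stress RE mice they numbered 40.4, 10.5, 41.0, 51.4 and 14.9 (mice 43, 70, 75, 77 and 90). Stress RE mice 43, 75 and 77 were the highest of all 15, mouse 70 of the same group was among the lowest, and the ranges of the 3 groups overlapped. The NP mean was 22.7 ± 10.7 (SD, n = 6), the control RE mean 20.3 ± 5.31 (n = 4) and the stress RE mean 31.6 ± 17.9 (n = 5). Stress RE minus control RE was 11.4 per 10000 (two-sided exact permutation test, p = 0.254, adjusted p = 0.461 over 3 comparisons), with 15.6 within batch 2 and 17.7 within batch 3. Stress RE minus NP was 8.94 (exact permutation p = 0.307), with -3.56, 8.54 and 11.3 within batches 1, 2 and 3. Control RE minus NP was -2.44 (exact permutation p = 0.714), with -7.07 within batch 2 and -6.49 within batch 3. None of these differences passed the test against the spread between mice. The mice of high striatal list were 2 of 6 in NP, 0 of 4 in control RE and 2 of 5 in stress RE, and the part of that tissue in the differences was not tested. Without stress RE mouse 77 stress RE minus control RE was 6.43 and stress RE minus NP 3.99, and without stress RE mouse 70 the latter was 14.2. With nuclei thinned to 2000 UMIs and 1 UMI of the rule genes enough, stress RE minus control RE turned to -25.7 and control RE minus NP to 48.0. A cut at 1 UMI takes in nuclei outside the rule. Before thinning, the 4537 nuclei with 1 UMI of the rule genes carried Cenpf in 0.992% of cases and Top2a in 6.70%. Their mature neuron list was at 6136 CPM.

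Of the 33 proliferating nuclei of stress RE mouse 43, 21 carried Mki67 without Top2a, the most of any mouse, and NP mouse 37 had 10 such nuclei of 21. Counting only nuclei with Top2a, mouse 43 had 14.7 per 10000 and stress RE mice 75 and 77 had 33.9 and 50.2. Top2a-bearing nuclei averaged 17.5 ± 10.6 (n = 6) for NP, 16.0 ± 6.08 (n = 4) for control RE and 24.2 ± 17.4 (n = 5) for stress RE mice, and the last exceeded control RE by 8.23 (exact permutation p = 0.460, chosen after the data were seen).

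**Figure D2:**
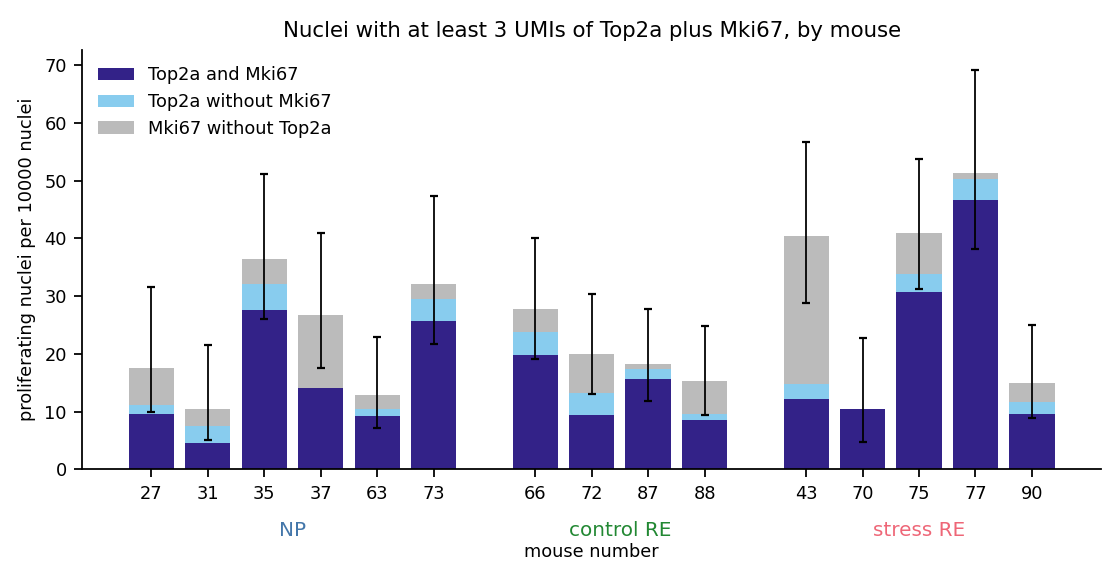
Bars give proliferating nuclei per 10000 nuclei (y axis) for each mouse (x axis, mouse number, by group), stacked by which rule genes the nuclei carried, and error bars are 95% Wilson intervals of the whole bar, which cover counting error only. Stress RE mice 77, 75 and 43 are highest at 51.4, 41.0 and 40.4, and most of the bar of mouse 43 is Mki67 without Top2a.

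The lineage markers gave 4 classes with little overlap, while 131 nuclei (38.3%) carried none of them. On GRCm38 the marker genes lie at chr2:71528113-71533981 (Dlx1), chr2:71543408-71546754 (Dlx2), chr5:75152292-75198215 (Pdgfra) and chr9:118478212-118486132 (Eomes), with Csf1r on chromosome 18. Dlx1 or Dlx2 was carried by 83 proliferating nuclei (24.3%, 95% Wilson interval 20.0 to 29.1%), of which Dlx1 by 75 and Dlx2 by 34. Pdgfra was carried by 90 (26.3%, 21.9 to 31.2%), Csf1r by 34 (9.94%, 7.20 to 13.6%) and Eomes by 21 (6.14%, 4.05 to 9.20%). These intervals cover counting error only and leave out the spread between mice, which for Dlx1 or Dlx2 ran from 0 to 45.5%. For comparison, nuclei with oligodendrocyte genes carried Dlx1 or Dlx2 in 0.884%, Eomes in 0.0189% and Csf1r in 1.98% of cases, and granule neuron nuclei carried Pdgfra in 1.63% and Csf1r in 2.21%. All 4 shares were above these background shares, though the oligodendrocyte nuclei were shallower. Thinned to 2000 UMIs, the shares were 17.7% for Dlx1 or Dlx2, 18.3% for Pdgfra, 6.91% for Csf1r and 2.40% for Eomes, against 0.690%, 3.04%, 2.76% and 0.0357% in the other nuclei.

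One marker only was carried by 74 nuclei for Dlx1 or Dlx2, 76 for Pdgfra, 24 for Csf1r and 20 for Eomes, while 17 carried more than 1 and 131 carried none. The 17 mixed nuclei were 7 with Dlx and Pdgfra, 7 with Pdgfra and Csf1r, 2 with Dlx and Csf1r and 1 with Eomes and Csf1r. Scrublet, which scores likely doublets, put 23.5% of them among its highest scores, against 13.5% of all proliferating nuclei and 7.46% of all nuclei. The share was 22.4% in the Pdgfra class, 20.8% in the Csf1r class (5 of 24), 8.11% in the Dlx class and 5.0% in the Eomes class. In a sparse nucleus a marker without a UMI is not shown to be absent.

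**Figure D3:**
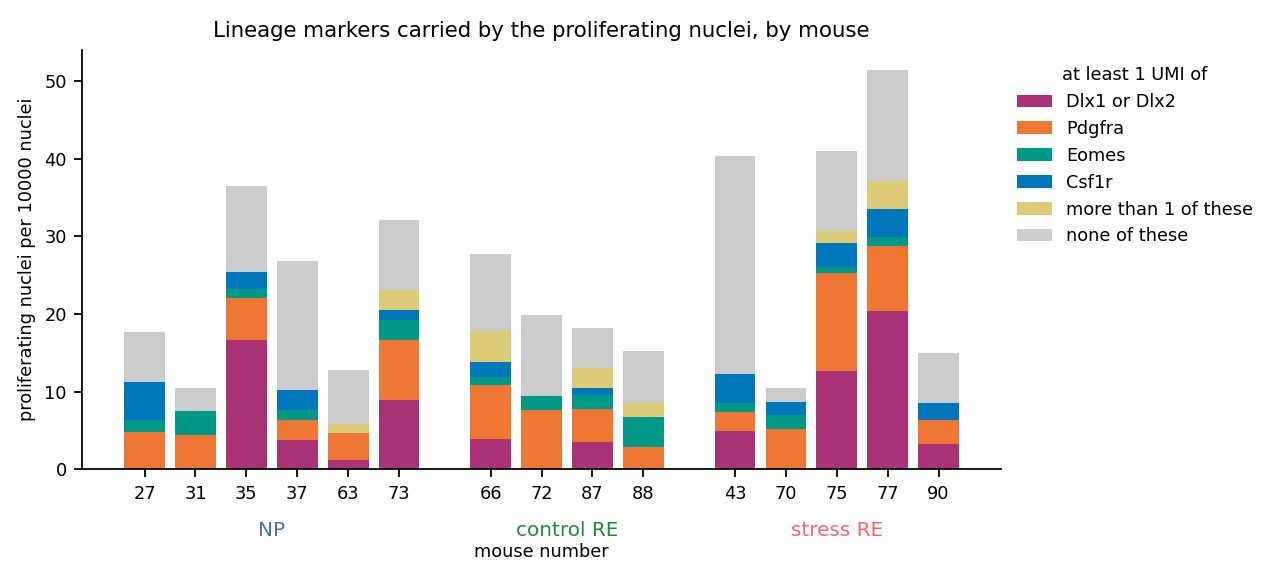
Bars give proliferating nuclei per 10000 nuclei (y axis) for each mouse (x axis, mouse number, by group), stacked by the 1 lineage marker the nucleus carried, with classes of their own for nuclei with more than 1 marker and with none. Nuclei with Dlx as their only marker make up much of the bars of mice 35, 73, 75 and 77 and are missing from mice 27, 31, 72, 88 and 70, of which mouse 88 has 1 Dlx carrier among its nuclei with more than 1 marker.

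The Dlx class carried genes of the GABAergic lineage. Beyond the 2 genes that chose it, its nuclei had 1112 CPM of Dlx6os1, a long noncoding RNA of the Dlx5 and Dlx6 locus, 301 CPM of Gad2 and 262 CPM of Gad1, the enzymes that make GABA, and 67.5 CPM of Sp9, a transcription factor of interneuron and olfactory progenitors. In the Pdgfra class these were at 12.7, 20.7, 60.4 and 1.59 CPM. The Dlx class also had 503 CPM of Egfr, the growth factor receptor of activated stem cells and their fast-dividing offspring, and 1056 CPM of the neural stem list. Cenpf was found in 63.5% of its nuclei. The class came from 10 of 15 mice, and its counts were uneven. Carriers of Dlx1 or Dlx2 numbered 0, 0, 15, 3, 1 and 9 in NP mice (27, 31, 35, 37, 63 and 73), 6, 0, 5 and 1 in control RE mice (66, 72, 87 and 88) and 4, 0, 17, 19 and 3 in stress RE mice (43, 70, 75, 77 and 90). Mice 35, 73, 75 and 77 thus held most of the carriers, and 4 mice held none.

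The Pdgfra class had the genes of OPCs. Its nuclei had 4164 CPM of Lhfpl3, 237 CPM of Cspg4, which encodes the NG2 proteoglycan, and 111 CPM of Olig2 and 87.4 CPM of Olig1, transcription factors of the oligodendrocyte lineage. The Dlx class had 145, 5.78, 5.78 and 11.6 CPM. The OPC list summed to 10478 CPM, against 13137 CPM in nuclei chosen for Pdgfra with the rule genes at 0. Cenpf was found in 68.4% of the class. Pdgfra carriers were found in every mouse, at 3, 3, 5, 2, 4 and 7 in NP, 11, 8, 8 and 5 in control RE and 2, 3, 17, 9 and 3 in stress RE mice.

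The Eomes class was small but had the highest levels of the neural stem and G2/M lists among the 4 lineage classes. Its 20 nuclei from 13 mice had 74.8 CPM of Neurog2, a proneural factor of the glutamatergic lineage, 332 CPM of Prox1, the factor of dentate granule cell fate, 283 CPM of Igfbpl1, a gene of immature neurons, and 8.31 CPM of Gad2. Slc1a3, the glutamate transporter of radial glia, stood at 1371 CPM and Egfr at 366 CPM, the latter below its level in the Dlx class. The neural stem list was at 2194 CPM and the G2/M list at 9897 CPM, above the 7609, 7199 and 5599 CPM of the Dlx, Pdgfra and Csf1r classes. Carriers per mouse numbered 0 to 4, with the most in control RE mouse 88. With 20 nuclei, these levels rest on few UMIs and were not tested.

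The Csf1r class had microglial genes. Its 24 nuclei from 11 mice had 725 CPM of Inpp5d, 483 CPM of P2ry12 and 410 CPM of Cx3cr1, against 27.02, 28.6 and 17.5 CPM in the Pdgfra class. Mrc1, a marker of border macrophages, was at 121 CPM and Ptprc, the leukocyte phosphatase CD45, at 231 CPM. The class therefore holds microglial genes with some of macrophages, and the 2 cell types cannot be told apart here. Carriers per mouse numbered 0 to 6. Cenpf was found in 62.5% of the class.

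Of the 131 nuclei with no lineage marker, 65 were Mki67 without Top2a and 66 carried Top2a. The 66 with Top2a had stem cell genes. Slc1a3 stood at 731 CPM, Egfr at 615 CPM, Ptprz1, a phosphatase of radial glia and OPCs, at 1484 CPM and Notch1, the receptor that keeps stem cells undifferentiated, at 120 CPM. The other nuclei of the series had 116, 23.0, 246 and 10.1 CPM. In the 66 the neural stem list was at 1696 CPM and the astrocyte list at 1092 CPM, against 1056 and 800 CPM in the Dlx class. Their Dlx list was at 265 CPM and their OPC list at 2646 CPM, against 90.4 and 1523 CPM in other nuclei. Among all 76 nuclei with Mki67 alone the neural stem list was at 86.97 CPM. Stress RE mouse 43 held 23 of the unmarked nuclei, the most of any mouse.

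**Figure D4:**
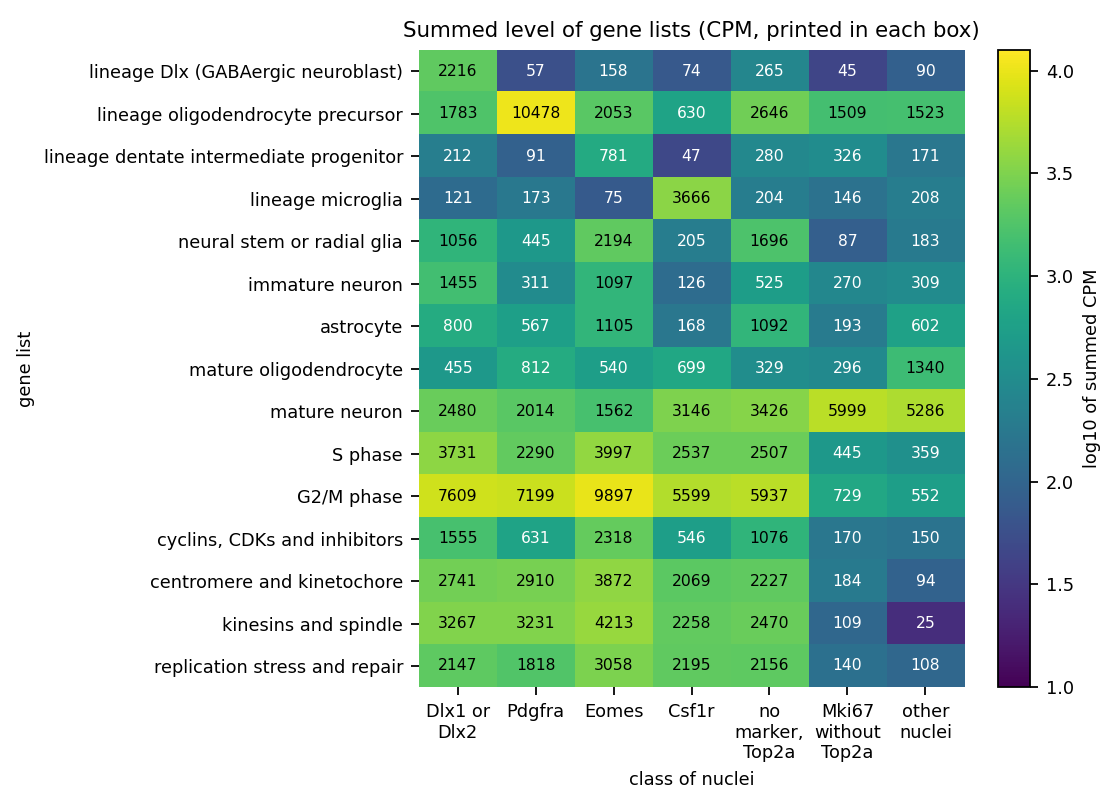
Summed CPM of 15 gene lists (rows) in 7 classes of nuclei (columns), with the colour on a log10 scale. Each lineage list is highest in the class of its own marker, the OPC list reaching 10478 CPM in Pdgfra nuclei, and the nuclei with Mki67 without Top2a lie nearer to the other nuclei than to the proliferating classes in the cell cycle rows. The column of Mki67 without Top2a shares 11 nuclei with the lineage columns, and the marker that chose a column is part of its own list.

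The Dlx and Pdgfra classes differed in Ccnd1 and Ccnd2, which encode D-type cyclins. These bind CDK4 or CDK6 to start the cycle. Ccnd2 stood at 892 CPM in the Dlx class, 690 CPM in the Eomes class, 57.2 CPM in the Pdgfra class and 26.3 CPM in the Csf1r class. Ccnd1 ran the other way, with 126 CPM in the Pdgfra class, 9.63 CPM in the Dlx class and 0 in the Eomes class. Cdk6 was at 1047 CPM in the Eomes class, 166 CPM in the Dlx class and 27.02 CPM in the Pdgfra class. The pattern held within mice. In the 4 mice with at least 5 nuclei of both classes (NP mice 35 and 73, stress RE mice 75 and 77), Ccnd2 was at 1384, 744, 571 and 1140 CPM in Dlx nuclei and at 56.7, 13.9, 16.3 and 47.8 CPM in Pdgfra nuclei. In the same mice Ccnd1 was at 0, 0, 20.2 and 7.65 CPM in Dlx nuclei and at 85.0, 83.6, 114 and 83.7 CPM in Pdgfra nuclei. The values of the 2 classes did not overlap for either gene. Ccnd3, the third D-type cyclin, was at 61.8, 24.0, 13.4 and 23.0 CPM in Dlx nuclei and at 0, 13.9, 0 and 23.9 CPM in Pdgfra nuclei, which overlapped. Cdkn1b, the inhibitor p27, was higher in Dlx nuclei and Cdk1 in Pdgfra nuclei of 4 of 4 mice. This is a description with no test, since the classes were cut from the same nuclei. CPM of 3-prime counts are compared here between classes for 1 gene at a time, not between genes.

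The make-up of the proliferating nuclei was compared between groups as the percentage of a mouse's proliferating nuclei that carried each marker, over the 13 mice with at least 10 of them. Pdgfra carriers made up 36.7% ± 3.66 for control RE (SD, n = 4), 23.3% ± 10.8 for NP (n = 5) and 20.3% ± 10.9 for stress RE mice (n = 4). Control RE minus NP was 13.4 percentage points (exact permutation p = 0.0317, adjusted p = 0.229 over 12 tests), with 8.92 within batch 2 and 19.9 within batch 3. Stress RE minus control RE was -16.4 points (exact permutation p = 0.0571, adjusted p = 0.229), where 0.0286 is the smallest p that 4 mice against 4 allow, with -13.5 and -19.3 within batches 2 and 3. Control RE mice were higher than the means of both other groups, but the differences did not pass the correction and single mice overlapped. Control RE mice were at 31.25 to 39.3%, with NP mouse 63 at 36.4% and stress RE mouse 75 at 32.7%. The mice left out for too few nuclei were above every control RE mouse. NP mouse 31 was at 42.9% (3 of 7) and stress RE mouse 70 at 50.0% (3 of 6). Among Top2a-bearing nuclei only, an alternative chosen after the data were seen, the Pdgfra share of control RE exceeded that of NP by 22.7 points (4 mice against 3, exact permutation p = 0.0571, adjusted p = 0.171). This comparison used other mice. NP mice 27 and 63, with 7 and 9 Top2a-bearing nuclei, were left out. The NP mice kept were 35, 37 and 73, of which 35 and 73 had a high striatal list. For Dlx1 or Dlx2, stress RE minus control RE was 14.7 points over all proliferating nuclei (exact permutation p = 0.200, adjusted p = 0.480), with 29.7 within batch 2 and -0.212 within batch 3, and 9.21 without stress RE mouse 77. Stress RE mice 75 and 77 had a high striatal list and no control RE mouse did, and its part in the Dlx share was not tested. With Top2a required, stress RE minus control RE was -23.4 points for Pdgfra and 20.8 points for Dlx1 or Dlx2 (4 mice against 4, exact permutation p = 0.0286 for each, the smallest possible, adjusted p = 0.171). Eomes carriers made up 11.9% ± 9.17 in control RE and 2.40% ± 1.95 in stress RE mice, a difference of -9.50 points (exact permutation p = 0.0571, adjusted p = 0.229). Control RE mouse 88 was at 25.0%, and without it the difference was -5.14 points. Per 10000 nuclei, Pdgfra carriers were at 7.54 ± 2.53 for control RE (n = 4), 5.16 ± 2.12 for NP (n = 6) and 7.01 ± 4.83 for stress RE mice (n = 5). Of the 12 comparisons of abundance by lineage, none had an adjusted p under 0.686 in its exact permutation test. The Pdgfra share has all proliferating nuclei of the mouse as its base, so it depends on the number of the others too. What this contributed to the differences was not tested.

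Expression within the proliferating nuclei was not told apart between groups. UMI counts summed per mouse over 5 NP, 4 control RE and 4 stress RE mice gave 0 of 4690 genes with an adjusted p under 0.05 in each of the 3 comparisons by edgeR (0% called). At an unadjusted p under 0.05 there were 130 genes for control RE minus NP, 121 for stress RE minus control RE and 92 for stress RE minus NP. Each number was below what a threshold of 0.05 gives by chance. On simulated counts of stress RE minus control RE the fit recovered 34.4% of genes (32 of 93) given a log2 change of 1. It recovered 96.7% (89 of 92) of those given a change of 2, so smaller differences could be missed. DESeq2 also called 0 genes in each, with 79, 82 and 65 at an unadjusted p under 0.05.

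Cycling Dlx nuclei were compared with Dlx nuclei of the same mice in which the rule genes were at 0. Both arms needed at least 2 UMIs of Dlx1 plus Dlx2 and at least 2 of Sox4, Sox11 and Igfbpl1, genes of immature neurons. Mice 35, 73, 75 and 77 had at least 5 nuclei in both arms, 42 cycling and 150 other nuclei in all. These are the 4 mice of high striatal list, so the comparison holds no mouse without it. By edgeR with the mouse as a block, 1350 of 4452 genes (30.3%) had an adjusted p under 0.05, with 585 (13.1%) higher and 765 (17.2%) lower in cycling nuclei. Of 170 genes on the cell cycle lists, 82 were tested and 77 were higher. Most of those passed the low-count filter through the cycling arm, which the rule chose for its cell cycle genes, so that number is a description. The 2 arms also differed in kind and depth. Over all mice, Rbfox3, which encodes the neuronal protein NeuN, had at least 2 UMIs in 59.3% of the 248 other nuclei and 9.09% of the 55 cycling nuclei, and the median nucleus had 10610 and 4879 UMIs.

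Egfr, a gene of the neural stem list, was higher in cycling Dlx nuclei. A gene entered the test with at least 42.6 CPM in 4 of the 8 libraries, and Egfr had that in all 8. Egfr was at 601, 438, 804 and 710 CPM (TMM-scaled) in cycling nuclei of mice 35, 73, 75 and 77 and at 90.2, 63.6, 55.0 and 133 CPM in the other nuclei, so the arms did not overlap. Egfr stood 2.91 ± 0.32 (SE) higher on the log2 scale (edgeR adjusted p = 7.25e-05). For the setting called like depth, other nuclei were kept only where their UMIs lay in the range of most cycling nuclei. Over all mice their median was then 5974 UMIs, against 4879 in cycling nuclei, so depth was limited and not matched. Against the 70 other nuclei of like depth Egfr had 2.05, and with Rbfox3 limited to 1 UMI in both arms 1.92, still with an adjusted p under 0.05. Of the 12 genes of the list 3 more were tested. Slc1a3, Notch1 and Sox2 reached the filter's level in all 4 libraries of cycling nuclei and in 0 of the other nuclei, so they entered through the cycling arm and are given as a description. Slc1a3 had 221 against 33.9 CPM, Notch1 128 against 8.85 CPM and Sox2 101 against 38.2 CPM.

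The cyclin Ccnd2 was higher too. Ccnd2 was at 1536, 1434, 1245 and 1365 CPM in cycling nuclei of the same mice and at 387, 167, 290.4 and 417 CPM in the other nuclei. The arms did not overlap, the log2 fold change was 2.21 (SE 0.32, edgeR adjusted p = 0.000421), and Ccnd2 kept an adjusted p under 0.05 at like depth (1.30) and with Rbfox3 limited (1.06). Cdk6, Ezh2 and Dach1 reached the filter's level in all 4 libraries of cycling nuclei but in only 2, 3 and 1 of those of other nuclei, and their values are a description. Cdk6, the kinase partner of Ccnd2, had 344 ± 51.0 against 54.6 ± 38.6 CPM (SD, n = 4). Ezh2, the methyltransferase of Polycomb repression, had 653 ± 113 against 66.2 ± 13.2 CPM and a log2 fold change of 3.29, with 2.16 at like depth and 1.85 with Rbfox3 limited. Dach1, a transcription factor of progenitor cells, had 536 ± 292 against 49.8 ± 23.4 CPM and a log2 fold change of 3.33, with 3.75 and 3.61 under the same limits.

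Of 8 genes of the mature neuron list, 6 were tested and 4 were lower, Camk2a, Syt1, Snap25 and Rbfox3, where 17.2% of all genes tested were lower. Syt1, the calcium sensor of synaptic vesicles, was at 1670, 316, 603 and 987 CPM in cycling nuclei and at 3050, 5206, 2770 and 3319 CPM in the other nuclei, a log2 fold change of -2.11 (SE 0.45, edgeR adjusted p = 0.00448). At like depth it was -1.01 and not called, and none of the 5 tested genes of the list was called there. With Rbfox3 limited it was -1.94 and called. Chrm3, a muscarinic receptor, had 70.1 ± 42.996 against 1506 ± 429 CPM (SD, n = 4), and Kcnq5, a potassium channel, 152 ± 44.5 against 1355 ± 124 CPM. Dgkg, Cdh13, Arhgap6, Cpne4, Slc35f3, Col25a1, A330008L17Rik and Gm41414 completed the 10 lower genes of smallest p. Of these 10 genes only Kcnq5 and Dgkg reached the filter's level in all 4 libraries of cycling nuclei, so the other 8, Chrm3 among them, entered through the arm of other nuclei and are a description, as is Rbfox3. Kcnq5 went from a log2 fold change of -3.14 to -0.68 with Rbfox3 limited and was then not called. The total of called genes went from 1350 to 247 of 1425 at like depth and to 234 of 1424 with Rbfox3 limited, of which 221 and 182 were among the 1350 with the same sign. Of the list of immature neurons, 5 genes were tested and 1, Dpysl3, was higher, where 13.1% of all genes tested were higher. At like depth Dpysl3 was not called and Stmn2 was called lower, and with Rbfox3 limited no gene of the list was called.

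The same comparison in the Pdgfra lineage, with at least 2 UMIs of Pdgfra and at most 1 of Dlx1 plus Dlx2 in both arms, used 7 mice (NP mouse 73, control RE mice 66, 72, 87 and 88, stress RE mice 75 and 77), with 54 cycling and 1658 other nuclei. By edgeR, 516 of 7751 genes (6.66%) were called, 301 (3.88%) higher and 215 (2.77%) lower in cycling nuclei. DESeq2 called 325 of the same genes higher and 110 lower. Of the cell cycle lists, 96 genes were tested and 82 were higher, again as a description, with Knl1, Kif11, Ckap2, Hmmr, Cenpf and Cenpe at the top. Ezh2 had 347 ± 85.1 against 58.2 ± 18.4 CPM (SD, n = 7) and a log2 fold change of 2.57. Cdkn2c, the inhibitor p18 of CDK4 and CDK6, had 56.8 ± 21.7 against 1.17 ± 0.84 CPM and was higher in 7 of 7 mice, a description, since it reached the filter's level of 16.5 CPM in 0 of 7 libraries of other nuclei. Ccnd1 was not called, with 26.4 to 254 CPM in the cycling nuclei of 6 mice and 0 in those of mouse 88.

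In cycling Pdgfra nuclei Tnr and Vcan, of the OPC list, were lower. Of 10 genes of the OPC list, 9 were tested, none was higher and these 2 were lower, where 2.77% of all genes tested were lower. Lhfpl3 was called lower too at like depth and without leptomeningeal nuclei. Tnr, the matrix protein tenascin-R, was at 1893, 3513, 2138, 1613, 3067, 1931 and 3354 CPM in cycling nuclei (mice 73, 66, 72, 87, 88, 75 and 77) and at 3955, 3914, 4123, 4150, 4644, 3481 and 4424 CPM in the other nuclei. It was lower in 7 of 7 mice, with a log2 fold change of -0.76 (SE 0.16, edgeR adjusted p = 0.000595). Vcan, the proteoglycan versican, had 842 ± 231 against 1232 ± 103 CPM (SD, n = 7) and a log2 fold change of -0.59 (SE 0.17, adjusted p = 0.0230). The 2 genes kept an adjusted p under 0.05 at like depth (-0.90 and -0.76) and without leptomeningeal nuclei (-0.77 and -0.78). With likely doublets removed only mice 66, 73 and 75 were left, and the values of -0.76 and -0.65 were not called. Over all mice, Rbfox3 had at least 2 UMIs in 15.8% of the 76 cycling nuclei and 9.69% of the 3250 other nuclei. In the Dlx lineage the OPC list went both ways, with 4 genes tested. Tnr (log2 fold change -1.63, edgeR adjusted p = 0.00616) and Lhfpl3 were lower in cycling nuclei, the latter entering through the other nuclei. Ptprz1 (2.42, edgeR adjusted p = 0.000187) and Vcan were higher. Of all genes tested in that lineage 13.1% were higher and 17.2% lower. At like depth Ptprz1 was still called higher, and no gene of the OPC list was called lower in that lineage.

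The 10 lower genes of smallest p in the Pdgfra lineage included Sema5a, Calcrl and Col11a2. Sema5a, a semaphorin that guides axons, had 168 ± 54.5 against 448 ± 50.2 CPM (SD, n = 7) and a log2 fold change of -1.39 (SE 0.23, edgeR adjusted p = 3.41e-06). Calcrl, a receptor of calcitonin-family peptides, had 77.2 ± 53.0 against 240 ± 17.5 CPM and -1.74 on the log2 scale. Both kept their call without leptomeningeal nuclei. Col11a2, a fibrillar collagen, had 5.15 ± 8.99 against 76.6 ± 17.0 CPM, a description, since it reached the filter's level in 1 of 7 libraries of cycling nuclei. Ranbp3l, Slc6a20a, Cemip, Slc7a11, Trpm3, Apod and Aox3 completed the 10, with Slc6a20a and Aox3 at 0 in the cycling nuclei of all 7 mice. Of these 7 genes only Trpm3 reached the filter's level in all 7 libraries of cycling nuclei, and the other 6 had it in 0 to 2. The vascular leptomeningeal list of 7 genes, whose cells also express Pdgfra, had at least 2 UMIs in 11.1% of the 3250 other nuclei and 1.32% of the 76 cycling nuclei over all mice. Without such nuclei Trpm3 went from -2.01 to -0.56 and Apod from -2.84 to -1.39, and neither was called. The total was then 480 genes, of which 415 were among the 516 with the same sign. Whether the 2 lineages differ in how cycling nuclei differ from others was not tested.

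**Figure D5:**
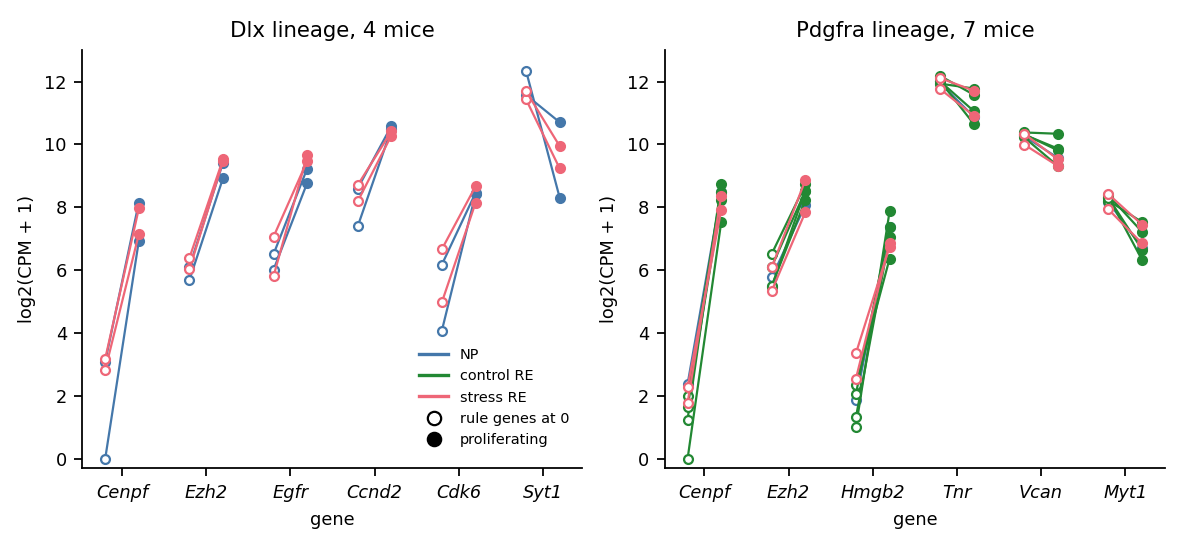
Lines join the 2 arms of each mouse, other nuclei with the rule genes at 0 (open points) and cycling nuclei (filled points), as log2(CPM + 1) on the y axis for 6 genes (x axis) of the Dlx lineage (left, 4 mice) and 6 of the Pdgfra lineage (right, 7 mice), coloured by group. Egfr and Ccnd2 are higher and Syt1 is lower in cycling Dlx nuclei of 4 of 4 mice, and Tnr and Vcan are lower in cycling Pdgfra nuclei of 7 of 7 mice.

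The mice with many Dlx nuclei also had more striatal RNA in the punch. The striatal projection neuron list (6 genes), summed over all nuclei but the proliferating ones, was at 183 CPM in NP mouse 35, 69.8 in NP mouse 73, 263 in mouse 75 and 123 in mouse 77, both stress RE. In the other 11 mice it was at 24.2 to 44.7 CPM. The 4 mice with the higher list were those with at least 5 cycling nuclei of the Dlx lineage, and they had 36.5, 32.1, 41.0 and 51.4 proliferating nuclei per 10000. The 2 sets of mice do not overlap in the list, so no correlation is given over all 15. Within the 11 mice, Pearson's r between the list and the proliferating nuclei per 10000 was 0.48 (permutation p = 0.118) and Spearman's rho 0.25. The ependymal list (8 genes), from cells that line the ventricle, was at 8.22 to 27.2 CPM, and its r over 15 mice was 0.59 (permutation p = 0.0223, adjusted p = 0.0445 over 8 values) with rho 0.67 (adjusted p = 0.0227). Without stress RE mouse 75 and NP mouse 35 r was 0.44 (permutation p = 0.137), no longer past the threshold, and rho was 0.57. Within batch 2 r was 0.81 and within batch 3 it was 0.36. With Top2a-bearing nuclei as the measure r over the 15 mice was 0.61 (permutation test, adjusted p = 0.0290). Within the 11 mice of low striatal list the ependymal r was 0.18 (permutation p = 0.587), and 0.12 with Top2a-bearing nuclei (permutation p = 0.709), while rho was 0.47 and 0.34. The dentate granule neuron list had an r of -0.04 over 15 mice (permutation p = 0.882) and of 0.53 within the 11 (permutation p = 0.0862), with rho 0.53. The part of striatal or ventricular tissue in the number of Dlx nuclei was not tested, and 2 of the 4 mice were NP and 2 were stress RE, while none was control RE. In tissue punches, more dividing cells and more tissue that holds them cannot be told apart.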

How the data were processed

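Nuclei from 15 mice were profiled by 10x snRNA-seq, 1 library per mouse. The authors aligned reads to mm10 with Cell Ranger (7.1.0 in the methods, 7.0.0 in the file header) and deposited filtered matrices of UMI counts per gene and barcode, without ambient correction, doublet removal or transformation. All columns of per-sample values were used (0 left out). Counts as deposited were read with Python 3.11.15, scanpy 1.11.5, numpy 2.4.6, scipy 1.17.1 and pandas 2.3.3, and plotted with matplotlib 3.10.9.

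Nuclei with at least 500 genes and 3 UMIs of Top2a plus Mki67 were taken, so the choice used measured values of these 2 genes. The members and all 30 gene lists (315 of 317 genes found) were chosen with earlier results of these data known. A marker was carried at 1 UMI or more. Pooled levels (CPM) are UMIs of a gene or list over all UMIs of the nuclei summed, scaled to 1000000. Sums of list genes leave out Top2a and Mki67. Doublets were kept, and Scrublet scores marked the highest 0.8% per 1000 barcodes of each library. Wilson intervals (95%) cover counting error only.

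Groups were compared over mice by two-sided exact permutation tests, and relations by 100000 permutations, with Benjamini-Hochberg adjustment. UMI counts summed per mouse (at least 10 proliferating nuclei, or at least 5 nuclei in each arm of a lineage) were tested by edgeR 4.0.16's quasi-likelihood test in R 4.3.3, with filterByExpr and TMM, and the mouse as a block between arms. The arms of 1 mouse share a library, and the mouse pairs them. Adjusted p under 0.05 over all genes tested was called. The edgeR fits were tested on simulated counts. Named genes were the rule genes and lineage markers, the 2 to 4 highest genes of each list and any that passed a test, up to 10 genes of smallest p in each direction per edgeR comparison, and the 15 highest ratios of proliferating to other nuclei among genes at 20 CPM or more. Genes named beyond these were members of the lists, named after their values were seen. Some list genes are not reported here.

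Alternatives were other UMI and gene minimums, marker minimums, thinning to 2000 UMIs, doublets removed, the other arm limited in depth, DESeq2 1.42.0, no low-count filter, batch or no block, each mouse left out and, chosen after seeing the data, Top2a required, Rbfox3 limited and leptomeningeal nuclei left out. Promoters came from RefSeq on GRCm38.p6.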

Additional observations from a re-analysis of the deposited data

Results flagged for a closer look

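In 33 groups of 4 to 6 mice the highest or lowest mouse was compared with the others by Dixon's test, and 3 stood apart, where chance gives about 1 in 20 groups. Pdgfra was carried by 31.25% of the proliferating nuclei of control RE mouse 88, below the other 3 control RE mice, of which the nearest had 38.1%. Csf1r was carried by 27.27% of those of NP mouse 27, where the next NP mouse had 9.52%. NP mouse 37 had 10 nuclei with Mki67 and no Top2a, where the next NP mouse had 4.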

How the results depend on the processing

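The differences between groups rest on 6 to 52 proliferating nuclei a mouse, which limits all shares, and none in abundance or share had an adjusted p under 0.171 in any alternative (member abundance 0.214, lineage abundance 0.514). Of 60 alternatives of member abundance 57 kept the sign of the difference, of 180 of lineage abundance 168 and of 164 of lineage shares 154. Thinned, with 1 UMI enough, member abundance was 48.0 for control RE minus NP and -25.7 for stress RE minus control RE. That cut takes in nuclei outside the rule. Lineage abundance changed sign for Pdgfra, stress RE minus control RE (0.451 with markers at 2 UMIs, 0.194 with the rule at 2), Eomes, stress RE minus NP (0.374 and, with the rule at 4, 0.370), and Csf1r, control RE minus NP (0.0259). Lineage shares changed sign for stress RE minus NP, in Csf1r (2.08 with markers at 2 UMIs, 0.857 without doublets, 2.19 with 5 nuclei a mouse, 4.23 with Top2a required) and Dlx (-2.46 with Top2a required). Leaving out 1 mouse gave, for control RE minus NP, -4.91 to 0.324 in member abundance, -0.0486 to 0.894 in Eomes and -1.03 to 0.288 in Csf1r abundance (0.179 without mouse 27) and -5.14 to 0.537 in Csf1r share. It gave, for stress RE minus NP, -0.147 to 5.54 in Dlx abundance, -7.12 to 1.75 in Pdgfra (0.291 without mouse 63) and -2.42 to 2.89 in Csf1r share, and for stress RE minus control RE, -2.13 to 0.607 in Pdgfra abundance (0.580 without mouse 66, 0.418 without mouse 90) and -0.553 to 4.21 in Csf1r share. With no low-count filter the groups gave 14, 10 and 5 genes, the Dlx lineage 2151 and the Pdgfra lineage 1148. The Dlx count was 247 at like depth, 234 with Rbfox3 limited and 934 to 1330 without 1 mouse. The Pdgfra count was 288 without doublets (3 mice) and 464 to 511 without 1 mouse. Vcan in the Dlx lineage turned from 0.95 to -0.31 at like depth and -0.59 with Rbfox3 limited. Pearson's r for dentate genes was 0.0612 on the log2 scale, 0.0421 without doublets and 0.35 without 2 mice, and for the Dlx list -0.21 without 2 mice and 0.57 with Top2a required. For ependymal genes r missed the threshold at 0.54 without doublets, 0.44 without 2 mice and 0.60 with Dlx nuclei as the measure. The causes were not tested. Between the groups of mice no paired analysis was possible because their replicate numbers were given in accession order and mark no shared litter or day. Between arms, which were fitted with the mouse as a block, leaving out the block called 1408 genes in the Dlx and 570 in the Pdgfra lineage.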
